A study of Rattus norvegicus with 12 samples.

Results

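The rat genes for translation initiation factors were followed across 12 libraries of cells put through oxygen-glucose deprivation and reperfusion. They were taken by symbol: every row of the deposited expression table whose gene name begins with Eif1 to Eif6, without the eIF2 kinases of the Eif2ak series. This rule gave 48 of the 18344 rows, each symbol on 1 row, and 47 of the 48 passed the filter on low values that left 14257 genes for testing. The 48th, Eif4e3, stayed near or under 1 FPKM in most libraries and was not tested. FPKM counts sequenced fragments relative to the length of the transcript and the size of the library, so levels of different genes can be set side by side.

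Initiation factors bring the initiator tRNA, the small ribosomal subunit and the mRNA together. eIF2 carries the initiator tRNA as a complex with GTP, and eIF2B reloads eIF2 with GTP after each round, a step that stress kinases block by phosphorylating the alpha subunit of eIF2. eIF3 is the large scaffold on the small subunit. eIF4F, made of the cap-binding protein eIF4E, the scaffold eIF4G and the helicase eIF4A, recruits the mRNA, and the eIF4E-binding proteins (4E-BPs) hold eIF4E back when mTOR signalling is low. Both control points are known to respond to shortage of oxygen and nutrients.

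Poly-A RNA had been sequenced in 4 groups of 3 libraries: NC with CIRBP as one arm, and si-NC with si-CIRBP as the other. CIRBP is the cold-inducible RNA-binding protein, and all 4 groups had gone through oxygen-glucose deprivation and reperfusion, a culture model of ischaemia, so no group shows the factors without it. The titles name H9C2, a line from embryonic rat heart, whereas the cell line label names rat astrocytes, and the labels do not say how CIRBP was given, what NC stands for or whether both arms shared the same cells. The table heads the NC and CIRBP columns with the letters ad, which nothing explains, so whether the arms were treated alike is unclear. The titles call the libraries biological replicates; nothing says that they came from separate cultures, so the p-values measure the spread between these libraries, which may be technical. Cirbp itself was at 19.0, 19.8 and 20.1 FPKM in NC and at 34.3, 36.5 and 36.5 in CIRBP, a log2 fold change of 0.83 (adjusted p = 2.47e-06). It was at 29.0, 24.2 and 27.0 FPKM in si-NC and at 26.5, 28.6 and 27.7 in the libraries labelled si-CIRBP, where no lower level was seen (log2 fold change 0.05, adjusted p = 0.609), so the label si-CIRBP is used below only as a name.

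The groups also differed in markers of cell types. The smooth muscle list (9 of 9 in the table) summed to between 260.3 and 269.9 FPKM in the NC libraries, 281 and 289 in CIRBP, 379 and 1925 in si-NC and 1164 and 1345 in si-CIRBP. Cald1 (185 and 190 FPKM) and Smtn (72.0 and 91.6) held most of the sum in NC and CIRBP. Acta2 was at 1.41 FPKM in NC and 1.02 in CIRBP, against 583 in si-NC and 557 in si-CIRBP. Tagln was at 1.80 and 0.904, against 221 and 183. In si-NC against NC 6 of the 9 were called higher and 0 lower. The skeletal and cardiac muscle list (14 of 20 in the table) summed to between 12.2 and 14.0 FPKM in NC, 9.07 and 10.9 in CIRBP, 21.1 and 167 in si-NC and 41.1 and 261 in si-CIRBP, with Tnni1 listed at 0 in all CIRBP libraries. Library 1 of si-NC stood apart in muscle genes (Myod1 at 1.74 FPKM against 21.6 and 15.2 in the other si-NC libraries, and at most 0.0819 in NC). The astrocyte list (8 of 9 in the table) summed to between 195 and 207 FPKM in NC, 284 and 300 in CIRBP, 151 and 201 in si-NC and 206.5 and 213 in si-CIRBP. In CIRBP against NC 2 of its 6 tested genes were called higher, as 19.7% of all genes tested were. Aldoc, at 22.3 ± 1.59 FPKM in NC and 87.4 ± 3.76 in CIRBP, held most of the gain, and S100b, the most abundant, was not called (adjusted p = 0.343). The part of these differences in the results below was not tested, and in bulk RNA fewer cells of a type and less RNA per cell cannot be told apart.

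Initiation factors were among the more abundant mRNAs. The median member stood at 78 FPKM in NC, against 12.1 for the median tested gene, and 19 of the 47 members had a mean over 100 FPKM, a level reached by 5.38% of all genes tested. The most abundant in NC were Eif5a, Eif1, Eif4a1, Eif3a, Eif4h and Eif3c. The 48 members together took 1% of all FPKM in NC, 0.811% in CIRBP, 0.975% in si-NC and 0.864% in si-CIRBP. In CIRBP the median member stood at 69 FPKM and 12 members had a mean over 100 FPKM. Their libraries agreed closely in NC and CIRBP: the median within-group SD of the members was 0.0392 and 0.0434 on the log2(FPKM + 1) scale, against 0.0931 in si-NC and 0.0867 in si-CIRBP. Over all genes tested it was 0.0539, 0.057, 0.133 and 0.147, in this order, so the pattern was not particular to the members. The tests below share the spread over all 4 groups, so those of CIRBP against NC also carry the spread of the si libraries. Those of si-CIRBP against si-NC in turn carry the smaller spread of NC and CIRBP, so their p-values may be too small. With only the 6 si libraries, a fit that also has fewer libraries, 1155 of all genes tested were called in the si arm instead of 4218.

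In CIRBP against NC most initiation factors were lower. Of the 47 tested members 27 fell, 7 rose and 13 were not called (limma, Benjamini-Hochberg adjusted p under 0.05 over all genes tested), which is 72.3% called where 54% of all genes tested were. In the lower direction the background was 34.2% and in the higher direction 19.7%. The members' median log2 fold change was -0.24, against -0.08 for all genes tested, and 32 members had all CIRBP libraries below all NC libraries, as 45% of all genes did, while 8 had them all above, as 29.7% of all genes did. Members called with a change of at least 1 on the log2 scale numbered 4 (7.69% of all genes tested passed this), namely Eif6, Eif1b and Eif3a, which fell, and Eif4ebp1, which rose. The levels depend on scaling: when the libraries were scaled to one median, 20 members fell and 9 rose, and the median over all genes moved from -0.08 to 0.03 (log2), that of the members from -0.24 to -0.09. In all genes tested the calls were then split into 28.7% higher and 26.4% lower, against 19.7% and 34.2% in the deposited scaling.

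**Figure D1:**
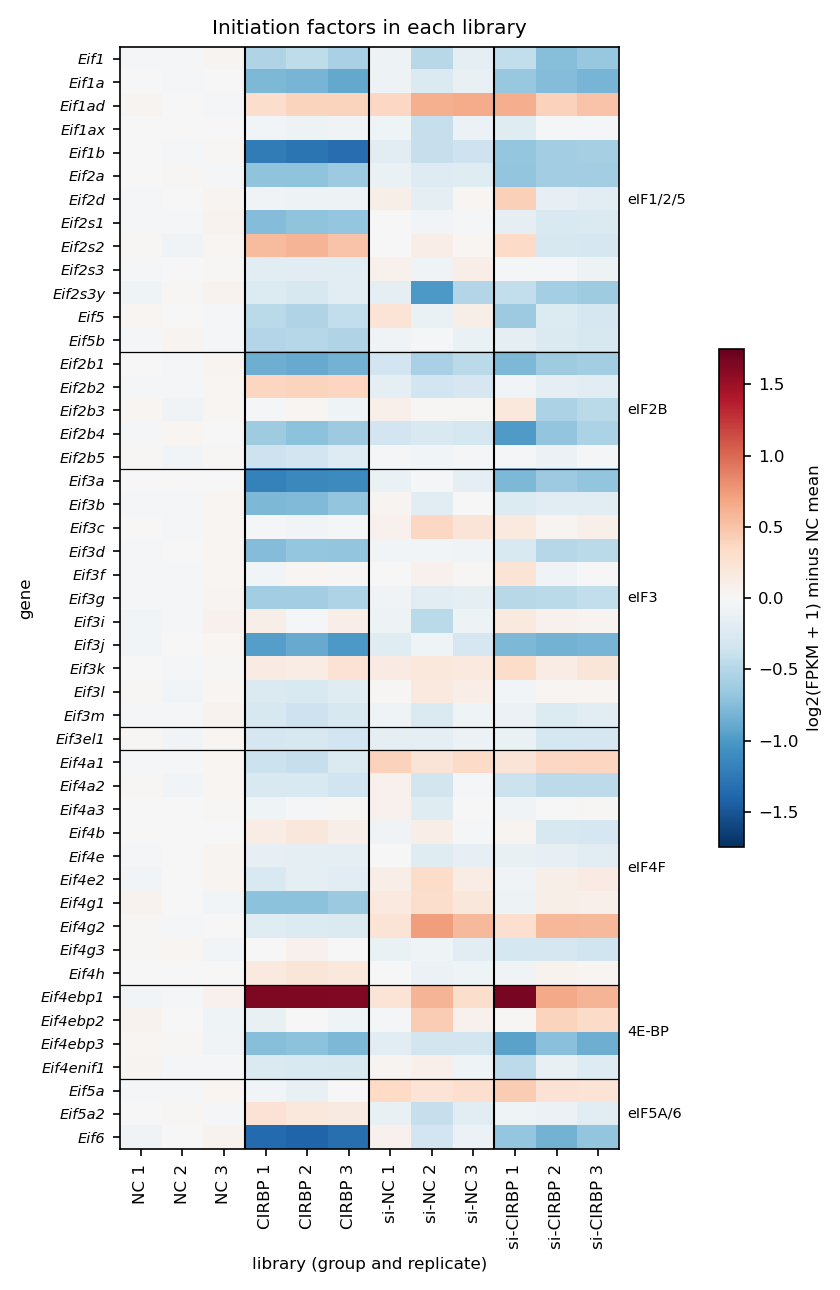
Heat map of log2(FPKM + 1) minus the NC mean for the 47 tested initiation factors (rows, grouped by role) in the 12 libraries (columns, by group). The 3 CIRBP libraries share blue rows for Eif6, Eif1b and Eif3a and a red row for Eif4ebp1, and si-CIRBP library 1 differs from the other libraries of its group in the rows of Eif4ebp1 and Eif2s2.

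Among the factors that carry the initiator tRNA and choose the start codon, 8 of 13 fell, 2 rose and 3 were not called, with a median log2 fold change of -0.48. That is 76.9% called, where 54% of all genes tested were (34.2% lower and 19.7% higher). Eif1b, a close relative of the start codon factor Eif1, was at 67.3, 66.4 and 68.2 FPKM in NC and at 28.3, 27.2 and 26.2 in CIRBP. This was the largest fall of the group, with no overlap (log2 fold change -1.28 ± 0.06 SE, adjusted p = 1.1e-07). Eif1a, of the eIF1A family that works with eIF1 in scanning, fell from 94.7, 92.8 and 94.4 to 54.1, 53.2 and 50.2 FPKM (-0.83 ± 0.06, adjusted p = 9.6e-07). Its relative Eif1ax stood at 89.8 ± 0.747 FPKM (SD, n = 3) in NC and 85.5 ± 1.25 in CIRBP and was not called. The more abundant Eif1 fell from 339.7 ± 9.34 to 238 ± 10.6 FPKM (-0.51 ± 0.10, adjusted p = 0.0018). How reads shared by near-identical genes were counted was not stated, so the pairs Eif1 and Eif1b, Eif1a and Eif1ax, Eif2s3 and Eif2s3y, Eif4a1 and Eif4a2, and Eif5a and Eif5a2 are uncertain one by one.

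The subunits of eIF2 moved apart. Eif2s1, the alpha subunit that stress kinases phosphorylate, was at 113, 114 and 122 FPKM in NC and at 68.5, 71.4 and 72.6 in CIRBP (log2 fold change -0.71 ± 0.05, adjusted p = 7.5e-07). Eif2s2, the beta subunit, was at 158, 149 and 159 FPKM in NC and at 227, 234 and 219 in CIRBP (0.55 ± 0.14, adjusted p = 0.0063). Every CIRBP library was below every NC library for the alpha subunit and above every one for the beta subunit. The gamma subunit Eif2s3 was at 40.4 ± 0.781 FPKM in NC and 35.2 ± 0.222 in CIRBP; it fell by 0.19 on the log2 scale in the deposited scaling (adjusted p = 0.0074) but not with the libraries scaled to one median (-0.05, adjusted p = 0.419). The ratio of Eif2s2 to Eif2s1, which restates these changes, was 1.33 ± 0.0503 (SD, n = 3) in NC and 3.20 ± 0.163 in CIRBP. Of the other factors of this group, Eif5, which triggers GTP hydrolysis by eIF2, fell from 96.5 ± 2.12 to 69.0 ± 2.22 FPKM (adjusted p = 0.003), and Eif2a and Eif5b, which is needed for subunit joining, fell by 0.68 and 0.51 (log2). Eif1ad, at the low level of 6.87, 6.60 and 6.46 FPKM in NC, rose to 8.49, 9.04 and 8.98 (0.36 ± 0.09, adjusted p = 0.0044).

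eIF2B, the exchange factor for eIF2, showed the same kind of split. Eif2b1, the alpha subunit, was at 35.1, 34.5 and 36.7 FPKM in NC and at 19.2, 18.9 and 19.5 in CIRBP (-0.85 ± 0.07, adjusted p = 3.1e-06). Eif2b2, the beta subunit, was at 60.8, 60.8 and 62.9 FPKM in NC and at 80.4, 80.7 and 80.3 in CIRBP (0.38 ± 0.05, adjusted p = 0.00013). Neither pair of groups overlapped, and the ratio of Eif2b2 to Eif2b1 went from 1.74 ± 0.0256 to 4.19 ± 0.0833. Of the other subunits, delta (Eif2b4) fell from 28.9 ± 0.610 to 17.9 ± 0.654 FPKM and epsilon (Eif2b5), the catalytic one, from 23.7 ± 0.779 to 19.0 ± 1.04, while gamma (Eif2b3) was at 17.2 ± 0.710 and 17.0 ± 0.708 FPKM and was not called. So 3 of the 5 subunits fell and 1 rose (80% called, against 54% of all genes tested). All 4 of these calls, and that of Eif2s1 and Eif2s2, held in all 21 alternative analyses.

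The bases upstream of the annotated start are printed for a few of these members, so that those that moved in opposite directions can be read side by side. RefSeq promoter windows (build GRCr8) were matched by symbol for 44 of the 48 members. Capitals mark matches to the motifs searched on both strands: TGATGNAA (the C/EBP-ATF response element core), GGAAGT and CCGGAAG (ETS motifs, which overlap each other), GCATGCGC (the NRF1 core), CACGTG (the E-box) and TGACGTCA (the CRE). The first 3 lines give the 120 bases before the start and the last the 30 bases around a match in Eif2s2, each 5′ to 3′ on the gene's strand.
Eif2s1, chr6:103405760-103405879, plus strand: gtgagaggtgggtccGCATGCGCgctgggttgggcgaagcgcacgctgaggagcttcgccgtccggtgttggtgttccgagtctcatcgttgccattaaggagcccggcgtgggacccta
Eif2b2, chr6:110597859-110597978, plus strand: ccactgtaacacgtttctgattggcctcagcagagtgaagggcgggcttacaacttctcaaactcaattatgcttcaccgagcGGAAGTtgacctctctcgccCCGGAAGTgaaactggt
Eif6, chr3:164791411-164791530, minus strand: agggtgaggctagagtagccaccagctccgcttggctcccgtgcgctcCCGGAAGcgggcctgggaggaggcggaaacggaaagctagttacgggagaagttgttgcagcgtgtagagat
Eif2s2, chr3:163855588-163855617, minus strand: ttccctttcgcTGATGCAAgagcctagcgc

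In the 250 bases before the start, Eif2s2 held the C/EBP-ATF core, at 36 to 29 bases before it, and Eif3g was the only other member of the 44 with a match (4.55%, against 3.58% of 27457 genes with a window). Eif2s1 held the NRF1 core 105 to 98 bases before its start, as did 4 of the 44 members (9.09%, against 2.48% of all genes), the others being Eif3a, which fell, and Eif3k and Eif4h, which rose. The longer ETS motif CCGGAAG was found in 17 of the 44 members (38.6%, against 8.11% of all genes) and the shorter GGAAGT in 22 (50%, against 20.7%). Eif2b2 held the longer motif 17 to 11 bases before its start and Eif2b1 at 82 to 76 bases, and Eif6 held it at 72 to 66 bases. By call in CIRBP against NC it was found in 9 of 26 members that fell, 4 of 6 that rose and 4 of 12 that were not called, so members of every class held it. The E-box was found in 8 members (18.2%, against 6.18%) and the CRE in 0 (1.78% of all genes). Here all genes means the 27457 with a window, which were not limited to the 14257 tested, so this background is not matched for expression. A match describes letters only.

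Of the eIF3 subunits, 11 were in the table, of which 7 fell, 1 rose and 3 were not called (72.7% called, against 54% of all genes tested). Eif3a, the largest scaffold subunit, was at 188, 188 and 187 FPKM in NC and at 82.3, 85.1 and 85.7 in CIRBP, the lowest of all 4 groups (-1.14 ± 0.05, adjusted p = 8.9e-08). Eif3j, a loosely bound subunit, fell from 49.0, 50.9 and 52.0 FPKM to 25.6, 27.0 and 24.8 (-0.95 ± 0.06, adjusted p = 5.8e-07). Eif3b, the other scaffold of the core, fell from 128, 129 and 134 FPKM to 74.9, 75.9 and 80.0 (-0.75 ± 0.06, adjusted p = 3.1e-06). The cap-contacting subunit Eif3d and the RNA-binding subunit Eif3g fell by 0.71 and 0.59 (log2). The complex did not move as one. Eif3c, which joins Eif3a at the centre of the complex, was at 160.3, 159 and 165 FPKM in NC and at 158, 156 and 158 in CIRBP, a log2 difference of -0.03 with a 95% interval from -0.18 to 0.11. Eif3f stood at 138 ± 3.43 and 138 ± 3.78 FPKM, with an interval from -0.15 to 0.16, and Eif3i was not called either. Eif3k rose from 78.0 ± 1.35 to 88.1 ± 4.38 FPKM (0.17 ± 0.06, adjusted p = 0.022), but leaving out NC library 1 (adjusted p = 0.0609), NC library 2 (0.0692) or CIRBP library 3 (0.0929) ended the call. The ratio of Eif3a to Eif3c was 1.16 ± 0.0247 in NC and 0.536 ± 0.0122 in CIRBP, and the 11 subunits summed to 1299 ± 27.9 and 989.6 ± 17.5 FPKM.

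In the cap-binding group 5 of 10 tested members fell, 1 rose and 4 were not called, so that 60% were called, near the 54% of all genes. Eif4g1, the main scaffold of eIF4F, was at 78.3, 74.8 and 72.9 FPKM in NC and at 45.5, 45.2 and 47.4 in CIRBP (-0.70 ± 0.06, adjusted p = 5.1e-06). Its relative Eif4g3 stood at 38.3 ± 1.27 and 38.8 ± 1.21 FPKM and was not called. Eif4g2, which lacks the eIF4E-binding part, was at 145, 142 and 143 against 123, 121 and 121 without being called (adjusted p = 0.1). Its groups did not overlap, and it was called lower in 4 of 21 alternatives (adjusted p down to 6.44e-05). The main test also carries the si libraries, where Eif4g2 ran from 169 to 238 FPKM in si-NC and from 176 to 214 in si-CIRBP. The missing call therefore does not show that Eif4g2 was unchanged. Eif4a1, the helicase, fell from 260.3, 259 and 269 FPKM to 203, 199 and 220.5 (-0.34 ± 0.06, adjusted p = 0.001), and the helicase cofactor Eif4h rose from 172 ± 0.263 to 196 ± 2.64 (0.19 ± 0.05, adjusted p = 0.0048). The cap-binding protein Eif4e was at 63.8, 64.9 and 67.3 FPKM in NC and 59.0, 58.1 and 57.8 in CIRBP. It was called lower (-0.16 ± 0.05, adjusted p = 0.025), but not with the libraries scaled to one median (-0.01, adjusted p = 0.878) nor without NC library 2 or 3 or any 1 CIRBP library (adjusted p from 0.0538 to 0.0911). Its relative Eif4e2, at 26.2 ± 0.833 and 22.6 ± 0.892 FPKM (-0.21 ± 0.07, adjusted p = 0.032), was likewise not called when the libraries were scaled to one median (adjusted p = 0.521) nor without NC library 2 or 3 or CIRBP library 1 or 3 (adjusted p from 0.0696 to 0.109). The third cap-binding paralog, Eif4e3, had mean levels of 0.459 ± 0.0163 FPKM in NC and 0.643 ± 0.0848 in CIRBP, and of 0.582 ± 0.219 in si-NC and 1.01 ± 0.501 in si-CIRBP.

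The largest rise of any tested member was in an eIF4E-binding protein. Eif4ebp1, the gene of 4E-BP1, was at 59.6, 60.4 and 64.6 FPKM in NC and at 194, 194 and 191 in CIRBP. The groups were far apart and did not overlap, and the log2 fold change was 1.63 ± 0.23 (95% interval 1.13 to 2.13, adjusted p = 0.00014). The paralog Eif4ebp2 was at 34.8, 33.2 and 31.6 FPKM in NC and at 30.1, 32.9 and 31.5 in CIRBP, with overlap and no call (-0.07, 95% interval -0.34 to 0.20). Eif4ebp3 went the other way, from 24.6, 24.5 and 23.1 FPKM to 14.0, 14.3 and 13.5 (-0.75 ± 0.06, adjusted p = 4.1e-06). Eif4enif1, which carries eIF4E into the nucleus, fell from 14.1 ± 0.452 to 11.5 ± 0.0991 FPKM, but not with the libraries scaled to one median (adjusted p = 0.196) nor when NC library 1 was left out (adjusted p = 0.0596). Summed over Eif4ebp1, Eif4ebp2 and Eif4ebp3, the 4E-BP mRNA per Eif4e mRNA was 1.82 ± 0.0456 in NC and 4.08 ± 0.0561 in CIRBP.

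**Figure D2:**
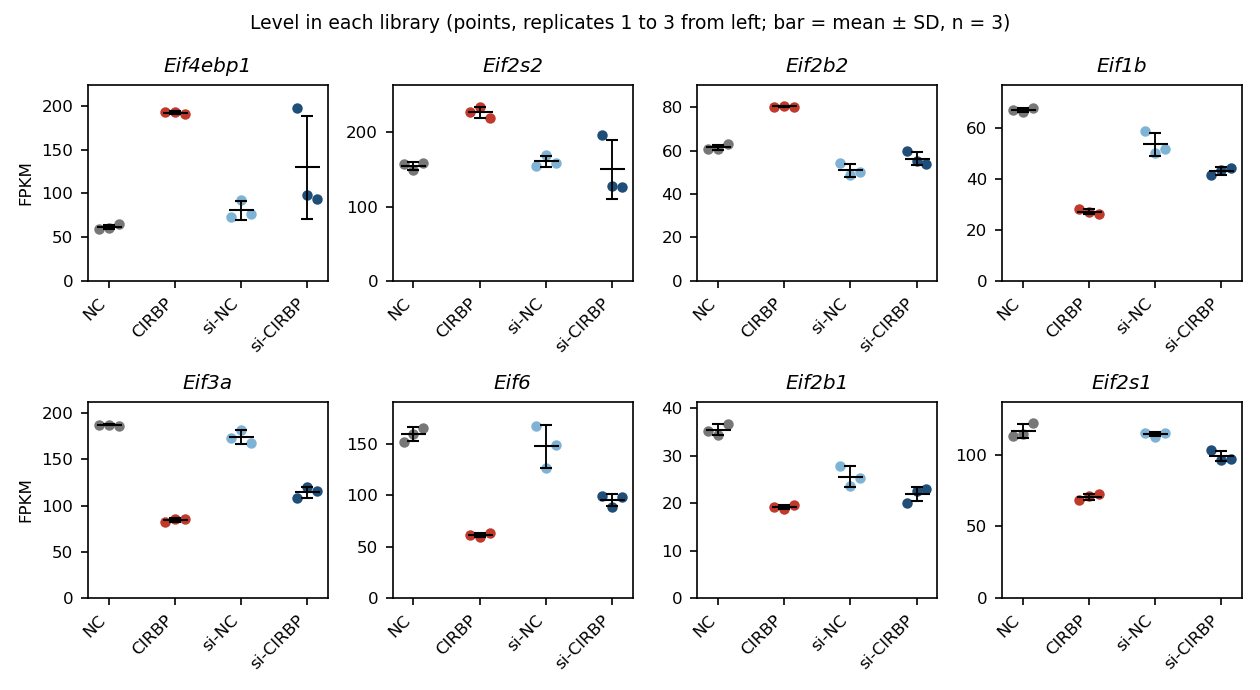
FPKM in each library (points) with the group mean and SD (bar and whisker) for Eif4ebp1, Eif2s2, Eif2b2, Eif1b, Eif3a, Eif6, Eif2b1 and Eif2s1, each with its own linear axis. CIRBP lies above NC for Eif4ebp1, Eif2s2 and Eif2b2 and below it for the other 5, and for Eif4ebp1 si-CIRBP library 1 (197 FPKM) lies beside the CIRBP libraries (194, 194 and 191).

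Eif6, which keeps free large ribosomal subunits from joining small ones, had the largest fall of the tested members in CIRBP against NC. It was at 152, 159.6 and 166 FPKM in NC and at 61.2, 59.4 and 63.2 in CIRBP (-1.36 ± 0.09, adjusted p = 7.8e-07). Eif5a, the abundant factor that carries hypusine, was at 407, 408 and 424 FPKM against 397, 378 and 416 and was not called (95% interval -0.20 to 0.09). Its less abundant paralog Eif5a2 rose from 18.5 ± 0.321 to 21.3 ± 0.746 FPKM (0.20 ± 0.07, adjusted p = 0.031), but the call was lost whichever 1 of the 6 libraries was left out (adjusted p from 0.0504 to 0.108). Eif3el1, the member in none of the role lists, fell from 138 ± 4.65 to 112 ± 2.38 FPKM (adjusted p = 0.00079), though not with the libraries scaled to one median (adjusted p = 0.0512).

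Fewer members changed in the libraries labelled si-CIRBP against si-NC, where Cirbp itself did not differ. Of the 47 tested members 19 fell, 1 rose and 27 were not called, which is 42.6% called against 29.6% of all genes tested (20.5% lower and 9.08% higher). The members' median log2 fold change was -0.12, against -0.04 for all genes, and 19 members had all si-CIRBP libraries below all si-NC libraries, as 24.3% of all genes did. No member (0) was called with a change of at least 1 on the log2 scale, as 1.68% of all genes were. Fitted to these 6 libraries alone, 7 members fell and 0 rose, where 6.24% of all genes fell and 1.87% rose. Scaled to one median, 11 fell and 6 rose, and the calls over all genes were then 17% higher and 13.3% lower. The 7 that fell in all 21 alternatives were Eif1a, Eif2a, Eif3a, Eif3g, Eif3j, Eif4ebp3 and Eif6.

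Eif3a was at 173, 182 and 167 FPKM in si-NC and at 108, 120.1 and 115 in si-CIRBP (-0.60 ± 0.05, adjusted p = 2.4e-05). Eif6 was at 168, 126 and 149 FPKM in si-NC and at 99.5, 89.1 and 98.4 in si-CIRBP (-0.61 ± 0.09, adjusted p = 0.00072). For both genes every si-CIRBP library was below every si-NC library. Eif3j fell from 43.4, 48.1 and 41.0 FPKM to 28.9, 28.1 and 28.4 (-0.61 ± 0.06, adjusted p = 6.4e-05), and Eif1a from 88.5, 79.0 and 86.2 to 58.7, 55.0 and 53.0 (-0.60 ± 0.06, adjusted p = 5.2e-05). Eif4ebp3 fell from 20.8, 19.1 and 19.0 FPKM to 12.1, 14.1 and 12.9 (-0.56 ± 0.06, adjusted p = 0.00016). Eif5 fell by 0.47 (log2, adjusted p = 0.0078), Eif2a by 0.46 (adjusted p = 0.0001) and Eif2b4 by 0.44 (adjusted p = 0.0052). Eif3i, an eIF3 subunit with a WD40 fold, was the only member called higher, at 47.6, 36.2 and 47.3 FPKM in si-NC and 57.0, 53.1 and 52.5 in si-CIRBP (0.31 ± 0.10, adjusted p = 0.031), and the call was lost without any 1 of the 3 si-CIRBP libraries (adjusted p = 0.0697, 0.056 and 0.0519).

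By role, 7 of 13 initiator tRNA and start codon factors, 2 of 5 eIF2B subunits, 4 of 11 eIF3 subunits, 3 of 10 tested cap-binding members, 2 of 4 eIF4E-binding proteins and 1 of 3 in the group of eIF5A and eIF6 fell. The shares called in either direction were 53.8%, 40%, 45.5%, 30%, 50% and 33.3%, in this order, against 29.6% of all genes, so the cap-binding group and that of eIF5A and eIF6 lay near the background. Eif2b2 was at 54.5, 48.7 and 50.0 FPKM in si-NC and at 59.7, 55.0 and 54.1 in si-CIRBP, with overlap and no call (0.14, 95% interval 0.02 to 0.25, adjusted p = 0.075). Eif4e, Eif4e2 and Eif4ebp2 were not called, with log2 fold changes of -0.04, -0.12 and 0.08. Eif5a2 was not called either (0.12, adjusted p = 0.21).

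Library 1 of si-CIRBP stood apart in some members. It also stood apart in some skeletal and cardiac muscle markers. Myog was at 1.48 FPKM against 28.7 and 44.8 in the other si-CIRBP libraries, and Tnnt2 at 9.45 against 61.4 and 89.9. Other muscle markers were not lower in it, with Myod1 at 11.0 FPKM against 9.83 and 11.6 and Tagln at 196 against 160 and 193. The part of this in the values below was not tested. Eif4ebp1 was at 72.6, 93.1 and 76.2 FPKM in si-NC and at 197, 98.2 and 93.6 in si-CIRBP, so that every si-CIRBP library was higher but the first was far above the rest. The log2 fold change of 0.60 ± 0.23 was not called (adjusted p = 0.07); without that library it was 0.26 (adjusted p = 0.0495), and without si-CIRBP library 2 or 3 it was 0.76 (adjusted p = 0.0435) or 0.79 (adjusted p = 0.0313). Eif2s2 was at 155, 169 and 159 FPKM in si-NC and at 196, 128 and 126 in si-CIRBP, with overlap and no call (-0.13, adjusted p = 0.51), and without library 1 it was called lower (-0.34, adjusted p = 0.000672). Members that differed from the mean of the other libraries of their group by more than 0.3 (log2) numbered 8 in si-CIRBP library 1, 9 in si-NC library 2 and 0 in every NC and CIRBP library. Among the regulators of initiation, Ddit4, a stress-induced inhibitor of mTOR signalling picked out after its values were seen, was at 209 FPKM in si-CIRBP library 1 against 28.5 and 28.8 in the other libraries of that group.

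The arms have separate control libraries, and 18 members fell in both, which is 66.7% of those that fell in CIRBP and 94.7% of those that fell in si-CIRBP. Over all genes tested the same shares were 52.1% and 87%, so most genes that fell in the si arm fell in both, members or not. Only 7 of the 18 kept their call in the si arm in all 21 alternatives. Those of Eif2b1 and Eif4g1 held in 5 and 6 of 21, that of Eif1 in 14, and those of Eif4enif1 and Eif5b in 15 each. The si calls of Eif2s1 and Eif4a2 held in 17 and 18. Those of Eif1b, Eif2b4, Eif3d and Eif5 were lost only with the si libraries fitted alone. No member rose in both (0), 0 were called in opposite directions, and 11 were called in neither, among them Eif3c, Eif3f, Eif4a3, Eif4b, Eif4ebp2 and Eif5a. The difference of the arms was tested directly, as the log2 fold change in the CIRBP arm minus that in the si arm. It was called in 18 of the 47 members (38.3%, against 17.8% of all genes tested), with 14 lower, where the background was 10.9%, and 4 higher, where it was 6.87% (9.65% and 9.19% of all genes with the libraries scaled by median ratios, where 11 members were lower and 6 higher). The largest differences that held in all 20 alternatives were Eif1b (-0.97, adjusted p = 0.00024), Eif6 (-0.75, adjusted p = 0.0036), Eif2b1 (-0.64, adjusted p = 0.0022), Eif3b (-0.59, adjusted p = 0.0017) and Eif3a (-0.54, adjusted p = 0.00097). Eif1b fell in both arms, from 58.9, 50.5 and 52.0 FPKM in si-NC to 41.6, 43.7 and 44.5 in si-CIRBP (-0.31 ± 0.06, adjusted p = 0.0036), and more in CIRBP. Eif3b was at 135, 114 and 129.5 FPKM in si-NC and at 109.8, 113 and 114 in si-CIRBP and was not called (-0.17, adjusted p = 0.064).

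**Figure D3:**
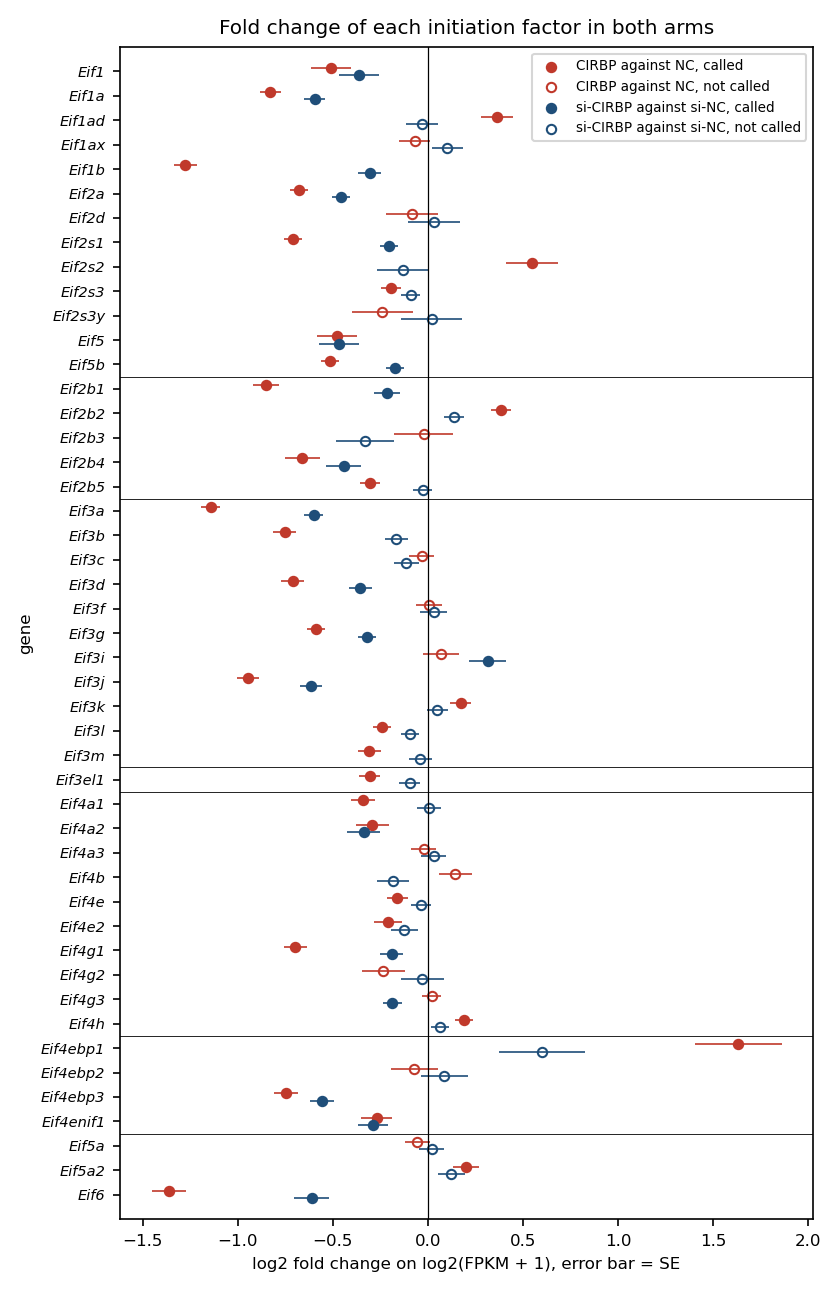
Log2 fold change on the log2(FPKM + 1) scale (horizontal axis, point with SE) of each tested initiation factor (vertical axis, grouped by role) in CIRBP against NC and in the libraries labelled si-CIRBP against si-NC. Filled points were called at an adjusted p under 0.05; most points lie left of 0 in both arms, and Eif4ebp1 (1.63 and 0.60) lies farthest right.

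The members that moved apart in CIRBP differed less in the si arm. The ratio of Eif2s2 to Eif2s1 was 1.34, 1.50 and 1.38 in the si-NC libraries and 1.90, 1.32 and 1.29 in si-CIRBP, against 3.32, 3.28 and 3.02 in CIRBP. The ratio of Eif2b2 to Eif2b1 was 2.00 ± 0.0649 in si-NC and 2.58 ± 0.333 in si-CIRBP. The 4E-BP mRNA per Eif4e mRNA was 2.31 ± 0.437 in si-NC and 4.06, 2.63 and 2.62 in the si-CIRBP libraries, so only library 1 reached the CIRBP level of 4.08. The difference of the arms was called for Eif4ebp1 (1.03 ± 0.32, adjusted p = 0.049) and Eif2s2 (0.68 ± 0.20, adjusted p = 0.036). Both calls were lost without any 1 NC or CIRBP library and without si-NC library 2 or 3 or si-CIRBP library 2 or 3, with adjusted p up to 0.102 for Eif4ebp1 and 0.0842 for Eif2s2. That of Eif4ebp1 was also lost without the filter, without the trend, with the replicate block and with the libraries scaled to one median. The 2 calls held in 6 and 10 of 20 alternatives, among them the fit without si-CIRBP library 1, with adjusted p down to 3.4e-05 and 2.83e-05. Those of Eif2b2 (0.24, adjusted p = 0.046) and Eif1ad (0.39, adjusted p = 0.048) held in 7 and 8 of 20 alternatives.

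**Figure D4:**
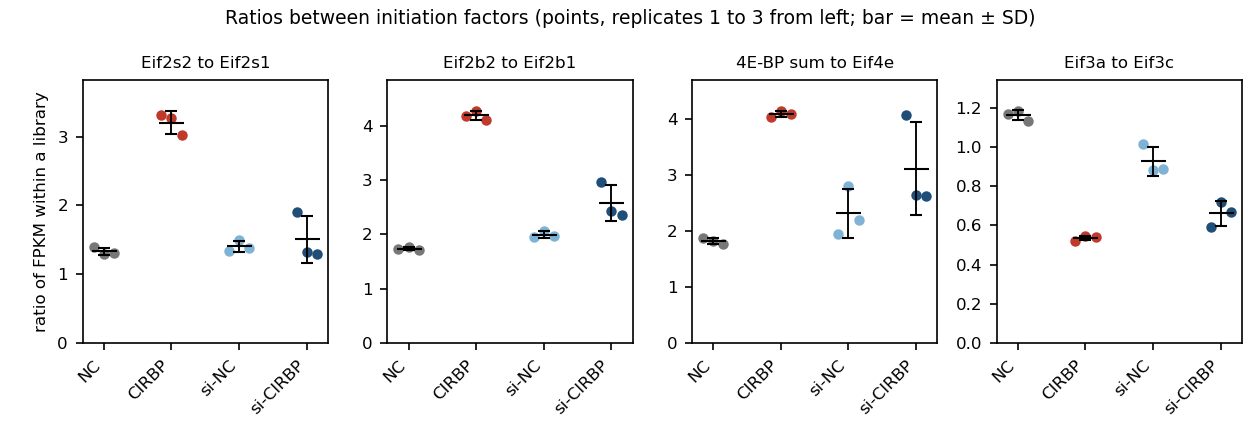
Ratios of FPKM values in each of the 12 libraries (points) with group means and SD: Eif2s2 to Eif2s1, Eif2b2 to Eif2b1, the 4E-BP sum to Eif4e, and Eif3a to Eif3c. In the first 3 the CIRBP libraries lie above all NC libraries (means 3.20 against 1.33, 4.19 against 1.74, and 4.08 against 1.82), and in the last below them (0.536 against 1.16).

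The control groups of the arms differed from each other too. In si-NC against NC, which shares its libraries with both comparisons above, 10 members fell, 7 rose and 30 were not called, 36.2% called against 34.4% of all genes tested, so the share lay near the background. All si-NC libraries were below all NC libraries in 19 members, as in 34% of all genes, and above in 9, as in 19.1%, and 0 members were called with a change of at least 1 on the log2 scale, as 4.33% of all genes were. The median log2 fold change was -0.053, but 0.002 with the libraries scaled to one median, where 7 fell and 9 rose (of all genes 17.5% lower and 15.1% higher, against 21.9% and 12.5% in the deposited scaling), and 0.004 when scaled by median ratios. Eif4g2 rose from 145, 142 and 143 FPKM in NC to 169, 238 and 212 in si-NC (0.51 ± 0.11, adjusted p = 0.007), where library 1, the one with low muscle markers, was the lowest. Eif4a1 rose to 347, 308 and 330.4 FPKM (0.32 ± 0.06, adjusted p = 0.0047), Eif5a to 527, 487 and 504 (0.29 ± 0.07, adjusted p = 0.0077) and Eif1ad to 8.85, 10.8 and 11.0 (0.55 ± 0.09, adjusted p = 0.0015). Eif2b1 fell to 27.9, 23.5 and 25.4 FPKM (-0.46 ± 0.07, adjusted p = 0.0012), Eif1b fell by 0.32 (adjusted p = 0.0033) and Eif2b2 by 0.26 (adjusted p = 0.0046). These 7 calls and that of Eif4ebp3 (-0.28, adjusted p = 0.0073) held in all 21 alternatives.

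The other called members in this comparison were less firm. Eif2s3y, a paralog of the gamma subunit gene Eif2s3, was at 50.9, 54.6 and 55.9 FPKM in NC and at 47.8, 26.3 and 37.3 in si-NC (-0.56 ± 0.16, adjusted p = 0.022), and the call was lost without NC library 2 (adjusted p = 0.0639), NC library 3 (0.0683) or si-NC library 3 (0.0527). Eif4g1 rose (0.23, adjusted p = 0.017), but not after NC library 2, NC library 3 or si-NC library 2 was left out (adjusted p = 0.0548, 0.0636 and 0.0546). The fall of Eif2b4 (-0.30) was not called when any 1 of the 6 libraries was left out (adjusted p from 0.0526 to 0.0859). The rises of Eif3c (0.22) and Eif3k (0.17) were not called without any 1 NC library or si-NC library 2 or 3 (adjusted p from 0.0529 to 0.0793 and from 0.0716 to 0.112), nor was that of Eif3k without CIRBP library 1 or 2 or si-CIRBP library 3 (0.055, 0.0505 and 0.0515). The fall of Eif3g (-0.14, adjusted p = 0.043) was called in 5 of 21 alternatives and not without any 1 NC or CIRBP library, si-NC library 2 or 3, or si-CIRBP library 2 or 3 (adjusted p from 0.0537 to 0.15). The falls of Eif2a (-0.18), Eif5a2 (-0.24) and Eif3j (-0.20) were not called without NC library 2 (adjusted p = 0.0602, 0.0702 and 0.0809). Leaving out NC library 1 ended the calls of Eif2a and Eif5a2 (0.0513 and 0.0609), NC library 3 that of Eif3j (0.0938), si-NC library 1 that of Eif3j (0.0513), si-NC library 2 that of Eif5a2 (0.0519) and si-NC library 3 those of Eif2a and Eif3j (0.0619 and 0.111). Scaling to one median or by median ratios also ended the calls of Eif2b4, Eif3g and Eif3j. With only the 6 libraries compared, the calls of Eif2s3y, Eif3c, Eif3g and Eif3j were lost. Smooth muscle markers differed in the same comparison, with 6 of 9 higher and 0 lower, as did skeletal and cardiac muscle markers, with 4 of 10 tested higher and 0 lower. Of all genes tested 12.5% were higher and 21.9% lower.

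The genes that act on initiation factors, taken from a list of kinases, phosphatase subunits, mTOR pathway members and mRNA-binding cofactors, changed in CIRBP too. Of 40 tested 23 fell and 10 rose (82.5% called, against 54% of all genes, median -0.31), and in si-CIRBP against si-NC 14 fell and 3 rose (42.5%, against 29.6%). In si-NC against NC 6 fell and 4 rose (25%, below the 34.4% of all genes), with the smallest adjusted p for Pabpc1, the poly(A)-binding protein that contacts eIF4G (0.41 ± 0.08, adjusted p = 0.0039). Eif2ak2, the RNA-activated eIF2 kinase, had the smallest adjusted p of the list in both arms. It fell from 47.4, 49.9 and 51.5 FPKM in NC to 15.8, 17.0 and 15.8 in CIRBP (-1.56 ± 0.05, adjusted p = 9.4e-09) and from 48.1, 49.5 and 49.7 in si-NC to 21.0, 20.5 and 21.2 in si-CIRBP (-1.19 ± 0.05, adjusted p = 1.1e-07). The libraries of each group lay close together and the groups far apart.

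The phosphatase subunits that direct the removal of phosphate from eIF2 alpha differed in the CIRBP arm. Ppp1r15a, the inducible one, fell from 73.3 ± 2.53 FPKM in NC to 21.8 ± 2.25 in CIRBP (-1.71 ± 0.26, adjusted p = 0.000245) and from 57.3 ± 2.68 FPKM in si-NC to 38.6, 15.5 and 16.7 in si-CIRBP (-1.36 ± 0.26, adjusted p = 0.0031). Ppp1r15b, the constitutive one, rose from 18.0 ± 0.382 to 28.4 ± 0.910 FPKM in CIRBP (0.63 ± 0.05, adjusted p = 2.3e-06) and was called lower in the si arm (-0.15, adjusted p = 0.041), a difference of the arms of 0.78 (adjusted p = 0.00025). Calls of genes outside the members, this one included, were not checked in the alternative analyses. Scaling to one median moved the si-arm median over all genes from -0.04 to 0.06, so this small fall may depend on scaling. The ribosome recycling factor Abce1 fell by 0.95 in CIRBP and by 0.37 in si-CIRBP (log2). Tsc1, a brake on mTOR signalling, fell by 1.13 and 0.51, and Dohh, which completes the hypusine of eIF5A, by 1.14 and 0.27. Larp1, which binds mRNAs of the translation machinery, fell in si-CIRBP from 71.0 ± 3.31 to 55.7 ± 1.06 FPKM (-0.34, adjusted p = 0.00071). Of 14 tested elongation and termination factors 5 fell and 2 rose in CIRBP (50% called, below the 54% of all genes), and 4 fell and 0 rose in si-CIRBP (28.6%).

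Among the genes whose log2(FPKM + 1) followed that of Eif4ebp1 most closely over the 12 libraries were Abhd14b (Pearson r = 0.981), Bcl2l1 (0.980), Plcb3 (0.979) and Smim14 (0.976). Bcl2l1 was at 31.8 ± 0.293 FPKM in NC and 48.9 ± 2.57 in CIRBP, and at 49.9, 37.0 and 37.0 in the si-CIRBP libraries, so library 1 of that group was again the highest. The 12 points share their groups and scaling, and the genes were picked as the highest of all tested, so the values are a description.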

How the data were processed

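The deposited table gives FPKM per gene and library, as the authors computed them, per the file headers. The submitters' processing notes name Bowtie2 2.3.3.1 and Cufflinks 2.2.1. They also name GRCm38 and mm10, which are mouse builds, although the identifiers are those of rat genes. Strand, annotation and the counting of shared reads are not stated, and no file gives counts, so depth is unknown. Summed FPKM ran from 457775 to 502889 per library, and 0 columns of values were left unused.

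Groups came from the sample titles. The comparisons used limma 3.58.1 (trend) in R 4.3.3 on log2(FPKM + 1), with 1 coefficient per group over 12 libraries, in the 14257 genes that reached 1 FPKM in 3 or more libraries (8 residual and 2.53 prior degrees of freedom). Two-sided p-values were adjusted by Benjamini-Hochberg over all genes, and a gene was called at an adjusted p under 0.05. Fold changes understate those of low genes. The script was tested on simulated data.

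Named were, per comparison, the up to 8 called members with the largest log2 fold change each way, all eIF4E and eIF4E-binding paralogs, Eif5a2, and up to 5 regulators by adjusted p. Eif1, Eif1ax, the other eIF2 and eIF2B subunits, the other eIF3 subunits, Eif3el1, Eif4g3, Eif5b and Ddit4 were named after their values were seen. Members and lists were chosen with earlier results of these data known. The ratios between members were not planned. They restate the changes of the members they pair, so they are a description and not further results. Alternatives changed the pseudocount (0.1), filter, scaling, variance model, libraries and replicate block. The smallest exact permutation p for 3 against 3 libraries is 0.1, so none was used. Of the genes most like Eif4ebp1, 1 is not reported here.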

Additional observations from a re-analysis of the deposited data

Results flagged for a closer look

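In 18 members the log2 fold change of CIRBP against NC differed from that of si-CIRBP against si-NC, by limma's test of the difference itself with Benjamini-Hochberg adjustment over all genes. The cause was not tested, and 17.8% of all genes tested differed in this way.

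Of these, 14 were lower in the CIRBP arm relative to the si arm. Among initiator tRNA, start codon and eIF2B factors the difference was -0.97 for Eif1b (adjusted p = 0.000244), -0.64 for Eif2b1 (0.00215), -0.50 for Eif2s1 (0.000961), -0.34 for Eif5b (0.00681), -0.28 for Eif2b5 (0.0247) and -0.22 for Eif2a (0.0442). Among eIF3 subunits it was -0.59 for Eif3b (adjusted p = 0.00171), -0.54 for Eif3a (0.000975), -0.36 for Eif3d (0.0169), -0.33 for Eif3j (0.0218) and -0.26 for Eif3g (0.0222). It was -0.75 for Eif6 (adjusted p = 0.00355), -0.51 for Eif4g1 (0.00356) and -0.34 for Eif4a1 (0.0249). Of these 14, 8 kept their call in all 20 alternatives. The call was lost in at least 1 alternative that left out a library for Eif2a, Eif2b5, Eif3d, Eif3g, Eif3j and Eif4a1, whose highest adjusted p over the alternatives was 0.112, 0.0876, 0.0501, 0.0636, 0.0729 and 0.0705.

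The other 4 were higher in the CIRBP arm relative to the si arm: 1.03 for Eif4ebp1 (adjusted p = 0.0492), 0.68 for Eif2s2 (0.036), 0.39 for Eif1ad (0.0479) and 0.24 for Eif2b2 (0.0462). Each of these 4 lost its call when any 1 of the NC or CIRBP libraries was left out. Without si-CIRBP library 1, the library that stood apart, 7 members were called higher instead of 4. The share of all genes called higher was then 12.8% instead of 6.87%.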

How the results depend on the processing

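Every member given with a call kept its direction under every alternative in which it was fitted. In CIRBP against NC leaving out 1 library gave 5 to 8 members higher (16.4% to 23.9% of all genes) and 25 to 28 lower (30.4% to 38%). Scaling to one median gave 9 and 20 (28.7% and 26.4% of all genes), and median ratios 9 and 21 (27.2% and 27.6%). Only the 6 libraries compared gave 8 and 31 (27.9% and 42.8%). In this comparison 5 of the 7 that rose and 20 of the 27 that fell kept their call in all 21 alternatives. The si arm depended on the fit. There, 6 rose and 11 fell with the libraries scaled to one median (17% and 13.3% of all genes). By median ratios 4 rose and 13 fell (13.8% and 16.1%). With only the 6 libraries compared 0 rose and 7 fell (1.87% and 6.24%). With a variance factor per group 0 rose and 11 fell (3.77% and 10.4%). Leaving out 1 library gave 1 to 2 higher (6.78% to 12.1%) and 16 to 21 lower (16% to 23.6%).

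For the difference of the arms, members called higher numbered 2 without the filter, 2 without the trend and 2 with the replicate block (5.35%, 6.82% and 5.99% of all genes). When 1 library was left out 0 to 7 were called higher (4.2% to 12.8% of all genes) and 8 to 16 lower (6.99% to 18.8%). In si-NC against NC 4 to 9 rose (6.85% to 17.5% of all genes) and 4 to 15 fell (14.4% to 29.6%) when 1 library was left out. With only the 6 libraries compared 6 fell (21.4% of all genes). Both si libraries numbered 1 stand apart from their groups in some muscle markers. Without them 3 rose and 24 fell in the si arm (16.3% and 25.5% of all genes). The difference of the arms was then called higher in 9 and lower in 20 (16.2% and 25.2%). In si-NC against NC 11 rose and 20 fell (21% and 36.4%). In each of these the calls over all genes grew as well. The causes of these changes were not tested, beyond the fewer libraries of some fits.

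Correlations of the deviations of same-numbered libraries were 0.097, 0.048 and 0.1 for NC with CIRBP, where different numbers gave -0.083 to -0.008 and 3 of 3 correlated best with their own number, a hint from the data only. They were 0.014, -0.09 and 0.041 for the si arm. Not every pair was over 0.1, so the numbers are not taken as pairing. With the replicate block 7 rose and 27 fell in CIRBP against NC (19.1% and 33.6% of all genes). In the si arm 1 rose and 17 fell with it (8.39% and 19.1%). Depth is unknown, so no counting error could be given.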
